A study of Mus musculus with 12 samples.

Results

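Wnt3 and Wnt9a encode Wnt ligands and Axin2 a feedback inhibitor that Wnt signalling switches on, and they were selected by name from the table of genes analysed here. They are 3 of its 99 genes, which are only some of the genes of the series, and all 3 lie on the plus strand of chromosome 11, as 25 of the 99 genes lie on that chromosome. The cells were wild-type mouse skin fibroblasts (Fibs), iPSCs reprogrammed from Fibs, induced mesenchymal stem cells (iMSCs) and wild-type bone marrow mesenchymal stem cells (BMSCs), with the genotype of iPSCs and iMSCs labelled as reprogramming and with 3 independent cultures and libraries of each of the 4 cell types. Fibs were grown from ear skin of 8-week-old female C57BL/6 mice. For iPSCs, such Fibs received the Yamanaka factors from Sendai virus, and colonies were picked and kept with LIF after plating on inactivated feeder cells. For iMSCs, embryoid bodies of iPSCs were induced with TGF-beta1 at 10 ng/ml and bFGF at 5 ng/ml. BMSCs came from the marrow cavity of the femur, and no source used here gives the age of their donors. The series does not say whether the libraries of a cell type came from different mice or colonies, so the p-values measure the spread between these cultures.

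Wnt proteins are secreted, lipid-modified ligands that bind Frizzled receptors with LRP co-receptors at the cell surface. In the canonical pathway this stops a complex built on Axin from marking beta-catenin for destruction, and beta-catenin then works with TCF/LEF factors on target genes. Axin2 is such a target in many mouse tissues and its protein rebuilds the destruction complex, so its transcript is widely read as a sign of canonical Wnt activity. Wnt3 is needed in the mouse embryo for the primitive streak and mesoderm, and Wnt9a takes part in joint and skeletal development. In mouse pluripotent cells Wnt signalling is known to support self-renewal, and in marrow stromal cells it is known to favour bone formation over fat.

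The table gave an FPKM value (fragments per kilobase of transcript for a fixed library size, a level that can be compared between genes) and a whole-number count for each gene and library. The library totals implied by both values ran from 66114058 to 77355820 counts. Low counts came mostly in steps of 4, so counting intervals and floors were computed on counts divided by 4. These counting intervals and floors cover counting error only. The intervals of log2 fold changes come instead from the edgeR fits on undivided counts and include the spread between cultures. iMSC replicate 2 stood apart over the 70 genes tested, lying 5.81 on average from the other iMSC libraries on the log2(FPKM + 1) scale, against 3.71 and 3.57 for replicates 1 and 3. Of the 9 pluripotency markers listed, Cdh1 was the 1 in the table, at an FPKM of 138 ± 5.83 (SD, n = 3) in iPSCs and under 1 in every other library. Of 12 mesenchymal markers, 2 were in the table and both were also present in iPSCs, Cav2 at 1.72 ± 0.0828 and Itga5 at 57.5 ± 2.58, against 13.8 ± 1.41 and 37.6 ± 2.21 in Fibs. Whether RNA of feeder cells took part in the iPSC values was not tested.

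By the table, Wnt3 lies at 103774150 to 103817957, Wnt9a at 59306928 to 59333552 and Axin2 at 108920349 to 108950783 on chromosome 11. These coordinates are the same as in GENCODE M21 on GRCm38, while the submitters' processing notes name mm9. Wnt3 and Axin2 are separated by 5102391 bases. Wnt3 has 1 transcript of 5 exons in the table, Wnt9a has 2 of 4 exons, and Axin2 has 5, of which the longest in GENCODE M21 has 11 exons and 4260 nucleotides. An antisense gene, Gm11670, lies inside Axin2 on the other strand at 108939310 to 108942015. The library protocol marked the second strand, but no source states whether counting used strand, so reads of Gm11670 could be included in Axin2.

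The 250 bases before the RefSeq start of each gene are shown because these genes were all highest in iPSCs, so that their start regions can be set side by side. They come from RefSeq's promoter windows on GRCm38.p6, plus strand, at chr11:103773925-103774174 for Wnt3, chr11:59306680-59306929 for Wnt9a and chr11:108920099-108920348 for Axin2. The Wnt3 window ends 25 bases inside the gene as the table places it. The Wnt9a window also ends just inside its gene, which starts at 59306928. Capitals mark matches on either strand to the GC box (the letters GGGCGG), to the box named CCAAT after its letters, and to the TATA box, spelled TATAAA or, with a final G, TATAAG. No match overlapped another.
Wnt3: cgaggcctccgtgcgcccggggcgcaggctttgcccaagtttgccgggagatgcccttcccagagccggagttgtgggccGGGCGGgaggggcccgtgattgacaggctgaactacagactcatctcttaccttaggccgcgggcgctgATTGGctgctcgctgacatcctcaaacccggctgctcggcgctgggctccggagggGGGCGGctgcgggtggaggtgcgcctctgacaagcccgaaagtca
Wnt9a: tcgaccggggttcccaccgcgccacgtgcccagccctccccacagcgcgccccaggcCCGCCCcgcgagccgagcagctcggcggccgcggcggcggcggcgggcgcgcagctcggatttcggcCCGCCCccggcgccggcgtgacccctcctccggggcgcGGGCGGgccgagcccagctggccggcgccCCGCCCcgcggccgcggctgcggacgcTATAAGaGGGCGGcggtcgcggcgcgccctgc
Axin2: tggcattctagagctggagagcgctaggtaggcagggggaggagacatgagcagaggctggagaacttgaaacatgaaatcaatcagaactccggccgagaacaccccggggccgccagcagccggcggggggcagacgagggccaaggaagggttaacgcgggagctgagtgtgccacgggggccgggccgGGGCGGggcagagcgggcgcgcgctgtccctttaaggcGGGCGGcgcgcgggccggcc

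The start regions of all 3 genes were rich in G and C. The GC content was 68.0% for Wnt3, 84.4% for Wnt9a and 69.2% for Axin2, against a median of 52.4% over 32851 RefSeq windows of this length. The number of CpG dinucleotides was 22, 48 and 24 respectively, against a median of 6. Wnt9a stood higher in CpG count than 99.8% of the windows, Wnt3 higher than 85.2% and Axin2 higher than 88.0%. The GC box occurred 2 times in Wnt3, 5 times in Wnt9a and 2 times in Axin2, and 32.7% of all windows held at least 1. Wnt9a had a TATA box with its first base 32 bases before the start, a motif found in 17.02% of windows, and Wnt3 had a CCAAT box 101 bases before it, a motif found in 33.9%. The TCF/LEF letters CTTTGAT and CTTTGAA were found in 7.48% of windows and in 0 of these 3, which says only that they are not in these 250 bases.

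Wnt3 was detected in iPSCs and was at or near 0 in every other cell type. Its FPKM was 0.582, 0.328 and 0.402 in iPSC replicates 1, 2 and 3, from 128, 76 and 96 counts. It had 0 counts in all 3 Fib and all 3 iMSC libraries, and 4, 0 and 4 counts in the BMSC libraries. The iPSC libraries did not overlap with those of any other cell type, and the transcript of the founder Fibs was as undetectable as that of the iMSCs made from iPSCs. A count of 0 allows an FPKM of up to 0.0571 in a Fib library and up to 0.0590 in an iMSC library, so low levels of Wnt3 in these cells could not be seen at this depth. Even in iPSCs Wnt3 was low, with a mean FPKM of 0.438 ± 0.131 (SD, n = 3), and it ranked 69 of the 99 genes there by mean FPKM. The spread between the iPSC libraries, a coefficient of variation of 29.9%, compares with 20% for counting error alone.

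**Figure D1:**
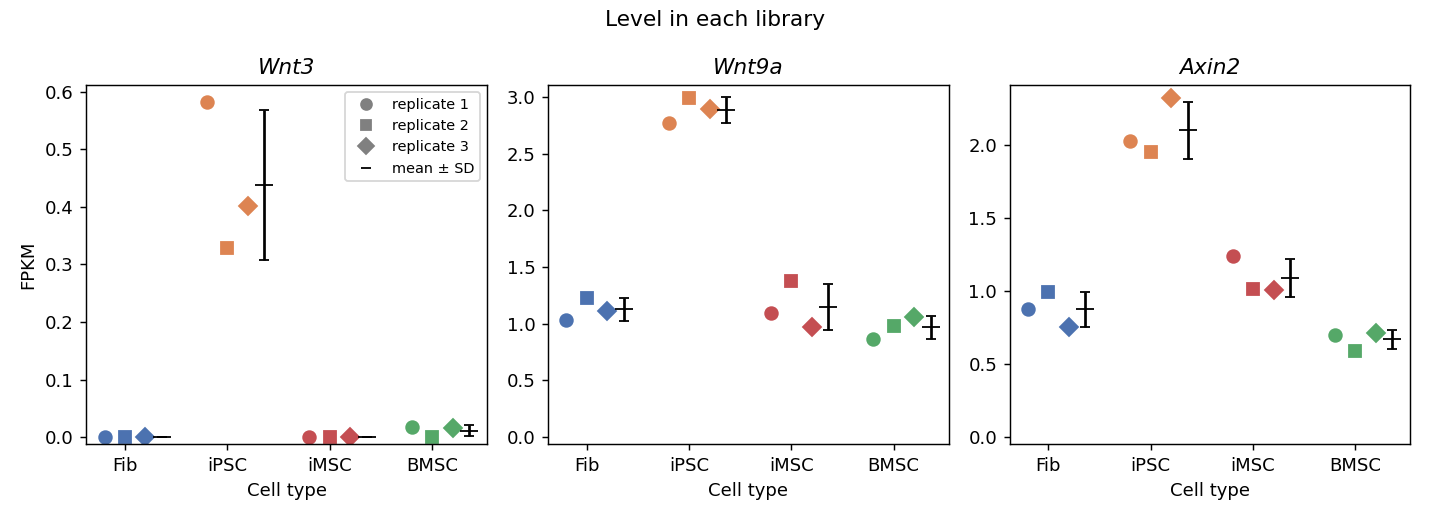
Level (FPKM) of Wnt3, Wnt9a and Axin2 in each of the 12 libraries, by cell type. Circles, squares and diamonds are replicates 1, 2 and 3, and the black bars are the mean ± SD of 3 libraries. The iPSC libraries lie above all others for each gene, and Wnt3 is at or near 0 outside iPSCs.

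Against a floor of 3 fragments (12 counts) over a group, the Wnt3 level of iPSCs was 23.5 times the floor of Fibs. It was 23.4 times the floor of iMSCs. These ratios carry no error of the iPSC counts and are not lower confidence limits. Against the 8 counts of BMSCs the ratio was 36.1, with a 95% counting interval of 9.64 to 303. Wnt3 stayed under the limit for testing (3 of the 12 libraries with an FPKM of 1 or more), so its p-values come from the fit over all 99 genes without that filter. In edgeR's quasi-likelihood test the adjusted p was 0.000649 between iPSCs and Fibs, 0.00108 between iMSCs and iPSCs and 0.000156 between BMSCs and iPSCs. In these fits 73.7%, 59.6% and 69.7% of all genes passed, so passing did not set Wnt3 apart. These comparisons share the iPSC libraries and are not independent of each other. Among Fibs, iMSCs and BMSCs the counts were at or under the floor, and no fold is given.

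Wnt9a was expressed in all 4 cell types and was highest in iPSCs, at about the same low level in the others. Its FPKM was 2.77, 2.99 and 2.90 in iPSC replicates 1, 2 and 3. In Fibs it was 1.03, 1.23 and 1.11, in iMSCs 1.09, 1.38 and 0.973, and in BMSCs 0.864, 0.976 and 1.06. Every iPSC library lay above every other library, and the remaining cell types overlapped with each other. The order of the means was iPSCs (2.89 ± 0.113, SD, n = 3), iMSCs (1.15 ± 0.206), Fibs (1.13 ± 0.0988) and BMSCs (0.968 ± 0.0998). Its limit for testing was met by the 3 Fib libraries as well as by iPSCs, so it did not enter the test through iPSCs alone. The highest iMSC value was that of replicate 2, and the spread between iMSC libraries (coefficient of variation 18.0%) was above the counting error (12.2%), while in the other cell types it was below it.

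Between iPSCs and the Fibs they were made from, Wnt9a rose 2.56-fold by mean FPKM (log2 fold change 1.36, 95% interval 0.90 to 1.81, edgeR adjusted p = 0.000355). It fell in iMSCs against iPSCs (log2 fold change -1.33, interval -1.89 to -0.77, adjusted p = 0.00247), which left it 0.03 above Fibs on the log2 scale (interval -0.58 to 0.63, adjusted p = 0.943). This last direction turned without iMSC replicate 2, to -0.12, and without Fib replicate 1, to -0.03. BMSCs were lower than iPSCs (log2 fold change -1.57, interval -1.97 to -1.18, adjusted p = 4.81e-05). Wnt9a did not pass between iMSCs and BMSCs (0.24, interval -0.33 to 0.82, adjusted p = 0.543) or between BMSCs and Fibs (-0.22, interval -0.73 to 0.30, adjusted p = 0.405). These intervals leave room for differences of up to 0.82, so equal levels were not shown.

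Axin2 was also highest in iPSCs, but unlike Wnt9a it was spread over the other cell types in 3 groups of libraries that did not overlap. Its FPKM was 2.02, 1.95 and 2.32 in iPSC replicates 1, 2 and 3, and 1.24, 1.01 and 1.01 in iMSCs. It was 0.876, 0.994 and 0.757 in Fibs and 0.701, 0.591 and 0.713 in BMSCs. The means were 2.10 ± 0.196 (SD, n = 3), 1.09 ± 0.130, 0.875 ± 0.118 and 0.668 ± 0.0674 in this order, and no library crossed into the range of another cell type. Below iPSCs, the neighbours in this order did not pass the test. How many other genes separate in this way, or as Wnt3 and Wnt9a did in iPSCs, was not counted. Non-overlap is therefore not read as particular to the members. The 3 iMSC libraries all reached an FPKM of 1, so Axin2 too met the limit for testing without iPSCs.

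Axin2 rose 2.40-fold by mean FPKM from Fibs to iPSCs (log2 fold change 1.26, interval 0.79 to 1.73, edgeR adjusted p = 0.000607) and fell in iMSCs against iPSCs (log2 fold change -0.94, interval -1.43 to -0.46, adjusted p = 0.00551). Its level in BMSCs was lower than in iPSCs by a log2 fold change of -1.65 (interval -2.04 to -1.26, adjusted p = 3.43e-05). Against Fibs, iMSCs had a log2 fold change of 0.31 (interval -0.23 to 0.85, adjusted p = 0.274), and BMSCs had one of -0.39 (interval -0.89 to 0.10, adjusted p = 0.127). Both of these missed the threshold.

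The comparison of iMSCs with BMSCs asks how near the induced cells came to the marrow cells, and here Axin2 lay close to the threshold. Its mean FPKM was 1.63-fold higher in iMSCs, and the log2 fold change was 0.70 (standard error 0.20, interval 0.21 to 1.19, adjusted p = 0.0652 in edgeR's quasi-likelihood test). Every iMSC library was above every BMSC library, but how many other genes separated so was not counted, and this is not read as support. The direction was the same under 16 of 16 alternatives, of which 7 gave an adjusted p under 0.05 (range 0.000186 to 0.209). DESeq2, the tool of the study's methods, called Axin2 with library totals (adjusted p = 0.000465) and with its own size factors (adjusted p = 0.000186). The rule in those methods also asks for a minimum fold change, which was not applied here and which Axin2 would not have met. Without iMSC replicate 2, the library that stood apart, the log2 fold change was 0.75 (edgeR adjusted p = 0.0134). That fit called 41 of the 70 genes and the DESeq2 fits called 22 and 23, against 12 in the main test. Without any other library of the comparison the log2 fold change was 0.60 to 0.75, and Axin2 did not pass.

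**Figure D2:**
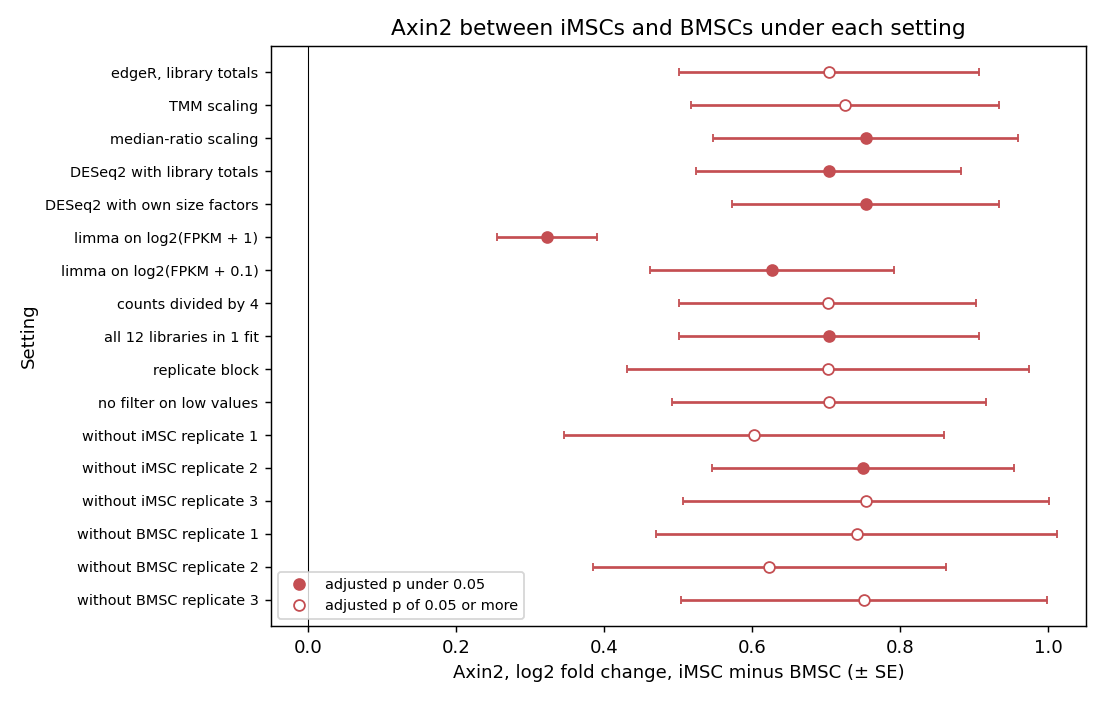
Log2 fold change of Axin2 between iMSCs and BMSCs (horizontal axis, ± SE) under each setting of the test (vertical axis). Filled points have an adjusted p under 0.05 and open points do not. All points lie above 0, from 0.32 with limma on log2(FPKM + 1), a scale that shrinks the change of low genes, to 0.75.

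Differences from iPSCs were common in this table, and the 2 tested members are read against that. Between iPSCs and Fibs 87.1% of the 70 tested genes passed an adjusted p under 0.05, between iMSCs and iPSCs 75.7%, and between BMSCs and iPSCs 78.6%, and Wnt9a and Axin2 passed in each. Between iMSCs and Fibs 55.7% passed, between BMSCs and Fibs 75.7% and between iMSCs and BMSCs 17.1%, and 0 of the 2 members passed in these. The share between iMSCs and BMSCs, 12 genes, was unstable when 1 library was left out. It was 41 genes without iMSC replicate 2, and from 1 (without BMSC replicate 1) to 6 (without iMSC replicate 1) without any other library. At an unadjusted p under 0.05 these last comparisons held 1 call among the members, that of Axin2 between iMSCs and BMSCs (unadjusted p = 0.0121), where 21 of the 70 genes (30%) were under that limit. DESeq2 called the same member there, among 22 genes with library totals and 23 with its own size factors.

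The median log2 fold change of all tested genes was 0.57 between iPSCs and Fibs, -0.29 between iMSCs and iPSCs and -0.26 between BMSCs and iPSCs. Beyond these medians, Wnt9a was 0.78 higher in iPSCs than in Fibs, -1.04 in iMSCs against iPSCs and -1.31 in BMSCs against iPSCs, and Axin2 was 0.68, -0.66 and -1.39 on the same scale. Between iPSCs and Fibs 19 of the 70 genes had a larger log2 fold change than Wnt9a and 20 a larger one than Axin2. With TMM scaling, computed from the tested genes alone, the median moved by -0.46, 0.42 and 0.31 in these comparisons. The calls of both members stayed, with log2 fold changes under TMM of 0.90, -0.89 and -1.27 for Wnt9a and 0.80, -0.53 and -1.34 for Axin2. Since the libraries are bulk samples, a lower level cannot be told apart from fewer cells that express the gene.

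**Figure D3:**
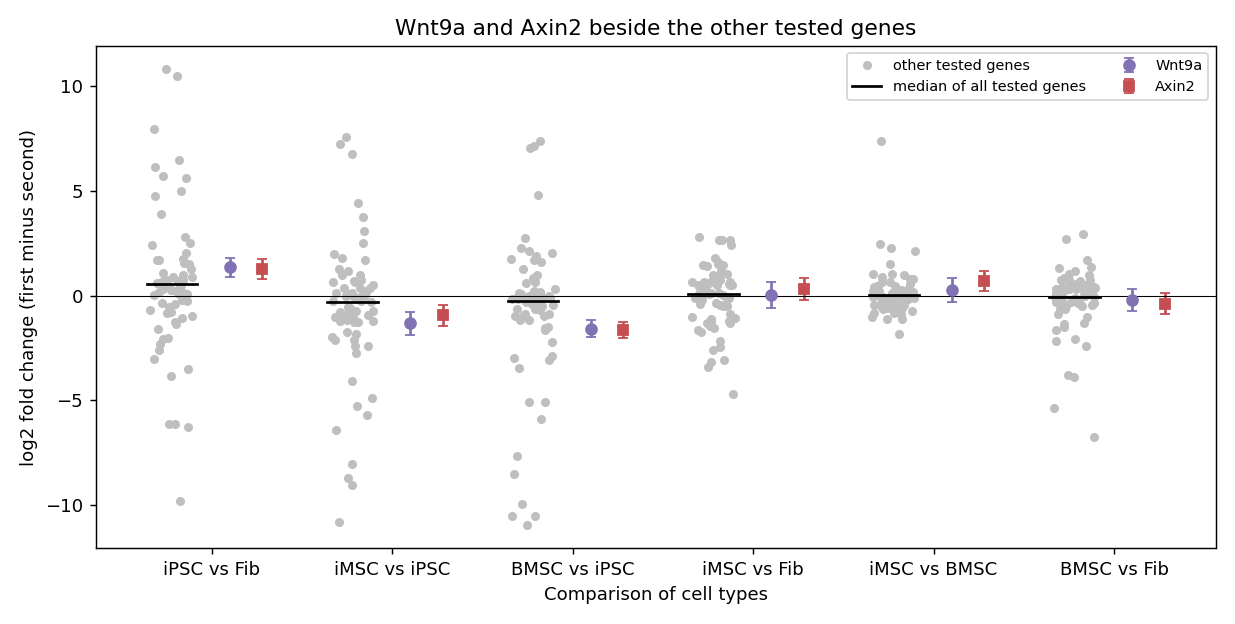
Log2 fold change (first cell type minus second) of Wnt9a (circles) and Axin2 (squares) with 95% intervals in the 6 comparisons of cell types. Grey points are the other tested genes and black lines the median of all 70. The members differ from 0 in all comparisons with iPSCs, from -1.65 for Axin2 in BMSCs to 1.36 for Wnt9a against Fibs, within the range of the other genes, and their intervals cross 0 among the other cell types except for Axin2 between iMSCs and BMSCs.

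The proportion of target to ligand was similar in iPSCs, Fibs and BMSCs, and higher in 2 of the 3 iMSC libraries. The ratio of Axin2 to Wnt9a FPKM was 0.728 ± 0.0748 (SD, n = 3) in iPSCs, 0.778 ± 0.0874 in Fibs and 0.696 ± 0.106 in BMSCs. In iMSCs it was 0.969 ± 0.205, from 1.13, 0.738 and 1.04 in replicates 1, 2 and 3. The range of iMSCs overlapped with that of each other cell type through replicate 2 alone, the library with the highest Wnt9a. With 3 libraries a group an exact permutation test cannot go below 0.1, and no test of the ratio was run.

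A mean transcript length was computed for each member. This length, weighted by FPKM, follows from count, FPKM and library total. For Wnt9a it was 3334 nucleotides in iPSCs and 3338 to 3342 in the others, near the 3320 and 3318 nucleotides of its annotated transcripts, whose lengths are too alike to tell apart. For Axin2 it was 5517 nucleotides in iPSCs, 5533 in iMSCs, 5540 in Fibs and 5528 in BMSCs. All of these exceed the 4260 nucleotides of the longest Axin2 transcript in GENCODE M21, and the transcript models behind the values are not given. The iPSC libraries (5515 to 5519) lay below the Fib libraries (5536 to 5545), a small difference that was not tested. For Wnt3 it was 3094 nucleotides in iPSCs and 3267 in BMSCs, and it has no value where counts were 0. The BMSC value rests on 4 counts in each of 2 libraries. The 1 Wnt3 transcript has 3076 nucleotides, so the computed length ran too high at low counts. The Axin2 difference between iPSCs (2588 counts over the group) and Fibs (1016) cannot be told apart from such a dependence on counts.

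Few other genes of Wnt signalling were among the 99 analysed here, and the rest of the pathway was not analysed. Of 19 Wnt ligands listed, 2 were in it, Wnt3 and Wnt9a, and of 19 receptors and co-receptors, 7 agonists and secretion factors, 16 secreted inhibitors and 19 nuclear factors there were 0. Of 32 cytoplasmic components there were 2, Axin2 and Gna12, and of 25 genes known as Wnt targets in some tissues there were 3, Axin2, Ccnd2 and Sox9. By the table's KEGG annotation, the Wnt signalling pathway held the 3 members and Ccnd2.

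Neither of the other listed targets followed Axin2. Ccnd2, the cell cycle regulator cyclin D2, was highest in Fibs, with an FPKM of 58.7 ± 3.37 (SD, n = 3) against 13.8 ± 0.412 in iPSCs (log2 fold change of iPSCs against Fibs -2.09, edgeR adjusted p = 8.65e-08). Sox9, the transcription factor of chondrocytes, was also highest in Fibs, at 17.5 ± 0.538, and lowest in iPSCs, at 0.245 ± 0.0505 (log2 fold change -6.14, adjusted p = 8.65e-08). Gna12, a G protein subunit, had FPKM means of 20.1 to 26.4 over the 4 cell types. It was higher in iPSCs than in Fibs by a log2 fold change of 0.18 (edgeR adjusted p = 0.0331), less than the median of all tested genes. BMSCs were higher than Fibs by 0.39 (edgeR adjusted p = 0.000468) and higher than iPSCs by 0.21 (edgeR adjusted p = 0.00572), and the 3 comparisons with iMSCs did not pass. Of these 3 genes, 2 thus fell from Fibs to iPSCs while Wnt9a and Axin2 rose.

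The genes with the most similar pattern were sought among the tested genes by Pearson's correlation of log2(FPKM + 1) over the 12 libraries. These libraries are 4 cell types of 3, so the correlations mostly describe how far a gene is high in iPSCs alone. For Wnt3 they were Rnf17 (r = 0.978), a Tudor domain gene of male germ cells, Gpa33 (0.970), a cell surface antigen of intestinal epithelium, and Ngfr (0.969), the nerve growth factor receptor. For Wnt9a they were Pdgfb (0.982), the B chain of platelet-derived growth factor, Gpa33 (0.979) and Ngfr (0.978). For Axin2 they were Wnt9a (0.938), the adhesion molecule Cdh1 (0.938) and the transcriptional repressor Bcl6b (0.934). The r between Wnt3 and Wnt9a was 0.936 and between Wnt3 and Axin2 0.889.

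These similar genes reached higher levels in iPSCs than the Wnt members did, apart from Pdgfb. The FPKM in iPSCs was 12.5 ± 1.70 (SD, n = 3) for Rnf17, 30.5 ± 1.83 for Gpa33, 10.95 ± 0.144 for Ngfr, 5.52 ± 0.193 for Bcl6b and 2.04 ± 0.0758 for Pdgfb. Outside iPSCs their means were at most 0.253 for Rnf17, 0.153 for Ngfr, 0.326 for Bcl6b and 0.0387 for Pdgfb. Wnt9a and Axin2 thus differed from them in that they stayed at mean FPKM values of 0.668 to 1.15 in the other cell types. The r of Axin2 with its nearest genes was lower than that of the ligands, and its levels in iMSCs, Fibs and BMSCs were ordered, as given above.

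**Figure D4:**
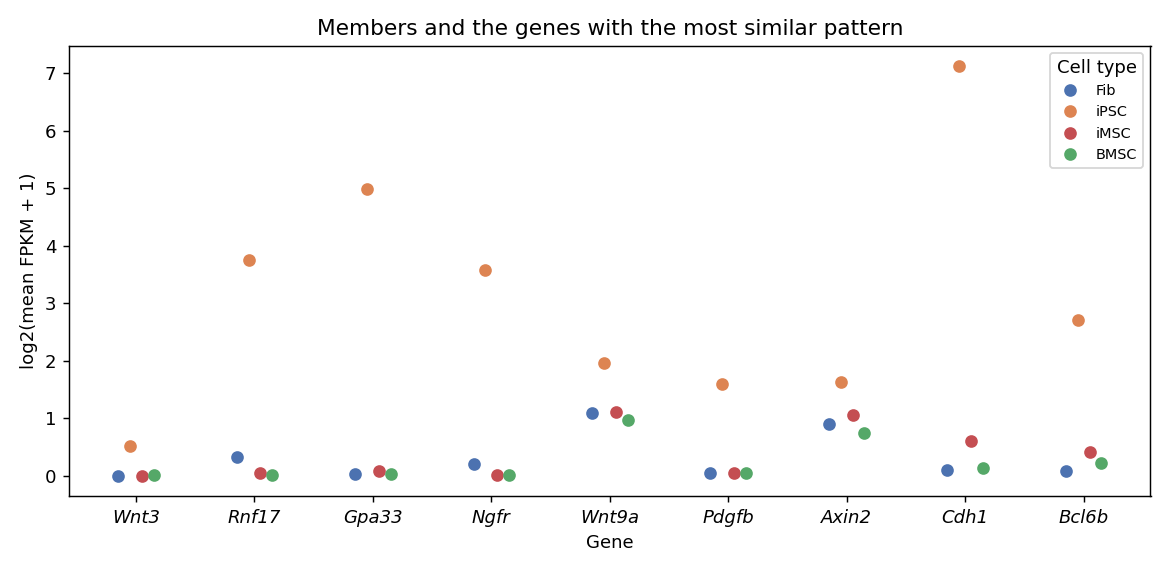
Mean level per cell type, as log2(mean FPKM + 1), of Wnt3, Wnt9a, Axin2 and of the genes with the most similar pattern over the 12 libraries. Each point is the mean of 3 libraries of a cell type. All of these genes are highest in iPSCs. Wnt9a and Axin2 keep mean FPKM values from 0.668 (Axin2 in BMSCs) to 1.15 (Wnt9a in iMSCs) in the other cell types.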

How the data were processed

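RNA of 12 libraries was sequenced as paired ends. The submitters' notes on processing list cutadapt 1.9, HISAT2 2.0.4 and StringTie 1.3.4d. FPKM, as deposited by the authors, corrects for the length of the transcripts and for the library total. The deposited counts are whole numbers that the authors did not normalize, and no source used here states how they were made. Of 77 counts from 1 to 13, 61 were exactly 4, 8 or 12. Library totals were computed from count, FPKM and the length of single-transcript genes with at least 500 counts, with a spread of up to 0.0924% between the genes used. Between replicates, chi-square per degree of freedom was at least 12.95 on the deposited counts, not divided by 4. Sampling noise alone, with counts in steps of 4, would give about 4.

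Each pair of cell types was fitted on its own 6 libraries with edgeR 4.0.16 in R 4.3.3 (quasi-likelihood test, library totals, prior count 0.125, Benjamini-Hochberg adjustment over all genes tested, called at an adjusted p under 0.05), over genes that had 3 or more libraries with an FPKM of 1 or above. The fit was also run on simulated counts with the same spread for all genes and libraries, unlike these data, so that run does not back the calls here. Alternatives used limma 3.58.1, DESeq2 1.42.0, other scalings, filters and sample sets. The genes named are the members, the 3 most correlated genes of each and the other genes of the Wnt lists. Members and lists were chosen with earlier results of these data known. Promoter windows are those of RefSeq. Exact 95% intervals and floors were computed on counts divided by 4.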

Additional observations from a re-analysis of the deposited data

How the results depend on the processing

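Wnt3, Wnt9a and Axin2 kept their direction and their call against iPSCs under every alternative fit that gave a value. A log2 fold change over 1 was not asked of the members. Axin2 between iMSCs and iPSCs, at -0.94, would not have met it. With TMM that value was -0.53 (edgeR adjusted p = 0.0436). Axin2 between iMSCs and BMSCs, not called in the report, had an adjusted p under 0.05 with 6 other settings, given here with their log2 fold changes. These were median-ratio scaling (0.75), DESeq2 with library totals (0.70) or its own size factors (0.75), limma on log2(FPKM + 1) (0.32) or log2(FPKM + 0.1) (0.63), and all 12 libraries in 1 fit (0.70). Leaving out 1 library gave log2 fold changes of 0.60 to 0.75, with an adjusted p under 0.05 only without iMSC replicate 2. For Wnt9a between iMSCs and Fibs, leaving out 1 library gave -0.12 to 0.13.

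The count of genes called between iMSCs and BMSCs, 12, was 22 with DESeq2 and library totals, 23 with DESeq2's own size factors, 22 with all 12 libraries in 1 fit, 1 with a replicate block and 4 with a log2 fold change over 1. Leaving out 1 library gave 1 (without BMSC replicate 1) to 41 (without iMSC replicate 2), and between iMSCs and Fibs, where 39 were called, 23 (without Fib replicate 2) to 47 (without iMSC replicate 2). The fold threshold left 38 of 61 genes between iPSCs and Fibs, 18 of 53 between BMSCs and Fibs and 34 of 55 between BMSCs and iPSCs. TMM moved the split between iMSCs and iPSCs from 19 higher and 34 lower to 29 and 26. Between BMSCs and iPSCs it went from 19 and 36 to 30 and 29, and between iPSCs and Fibs from 38 and 23 to 32 and 30. The cause of these changes was not tested.

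Replicate numbers were not taken as pairs. The correlations of same-numbered deviations ran from -0.388 to 0.436, which cannot decide whether such libraries share a culture history. Between iPSCs and Fibs they ran from -0.165 to 0.436, and between iMSCs and iPSCs from -0.0445 to 0.398. The replicate block changed no call of the members, and Axin2 between iMSCs and BMSCs had a log2 fold change of 0.70 (adjusted p = 0.2, edgeR). With an FPKM of at least 5 as filter, the members could not be fitted. Depth limits Wnt3 most, which rested on 300 counts over the iPSC libraries.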
